A study of Mus musculus with 6 samples.

Results

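Transcripts of 10 genes that mark the epithelium of the choroid plexus, Ttr, Folr1, Kl, Clic6, Otx2, Enpp2, Igf2, Aqp1, Cldn2 and Prlr, were followed mouse by mouse in hippocampal RNA-seq. They were chosen by their measured levels in these same libraries, so those levels are given as a description with no test. The genes account for 66 of the 133944 isoform rows and 10 of the 53354 gene symbols in the deposited table. Of the 66 isoforms, 28 had a mean expected count of at least 10 and 18 were listed at 0 in every mouse.

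The hippocampi came from C57BL/6 mice 3 months old, with 3 N-cre mice as controls and 3 N-cre;Fox1 mice. Mice of both groups carried a Cre driven by the nestin promoter. N-cre;Fox1 mice also carried 1 copy of an Rbfox1 cDNA at the Gt(ROSA)26Sor locus, behind a CAG promoter and a loxP-flanked stop, in an allele made in 129 stem cells and backcrossed to C57BL/6J. Each library came from 1 mouse with its own animal tag, which makes the mice the replicates.

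The choroid plexus is a folded epithelium inside the brain ventricles that secretes cerebrospinal fluid, and the plexus of the lateral ventricle lies against the hippocampus. Its cells move water, ions and folate, export the carrier protein transthyretin, and seal the barrier between blood and fluid. Several of its marker genes are scarce in neurons and glia, while others, such as Enpp2 and Kl, are also used elsewhere in the brain.

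The expected counts summed to 40463587 to 62141336 per mouse, and TMM normalization factors lay between 0.990 and 1.02. Levels are given as CPM, which are counts per 1000000 counts of the library after TMM normalization. At this depth 3 counts correspond to 0.0483 to 0.0741 CPM, and every one of the 10 genes lay above that in every mouse. Rbfox1 itself, summed over its isoforms, lay between 273 and 288 CPM in the controls and between 256 and 300.5 CPM in N-cre;Fox1 mice, so this sum does not check the labels. Hippocampal markers were present in every library, with a summed CPM over 12 genes of 1362 to 1400 in the controls and 1236 to 1424 with the transgene. The lowest sum, 1236, was that of N-cre;Fox1 replicate 2, which was also lowest for Mpped1 (227 CPM against 244 to 257), Fibcd1 (169 against 195 to 215) and Neurod6 (153 against 177 to 189), while Wfs1 was lowest in N-cre;Fox1 replicate 3 (124 CPM).

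The transcripts were concentrated in 2 of the 6 libraries, 1 of each genotype. N-cre;Fox1 replicate 2 was the highest mouse and N-cre replicate 3 the next for 10 of 10 genes. Together the genes took 0.0210%, 0.0220% and 0.326% of the counts in N-cre replicates 1, 2 and 3. They took 0.0220%, 0.718% and 0.0223% in N-cre;Fox1 replicates 1, 2 and 3. The 95% Wilson intervals, which cover counting error only, were 0.324% to 0.327% in N-cre replicate 3 and 0.716% to 0.721% in N-cre;Fox1 replicate 2, and the other 4 mice lay between 0.0206% and 0.0226% with their intervals. The same order of the 2 mice held for 1395 of the 18924 genes tested, or 7.37%. In a bulk sample fewer cells of a type and less RNA per cell cannot be told apart.

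**Figure D1:**
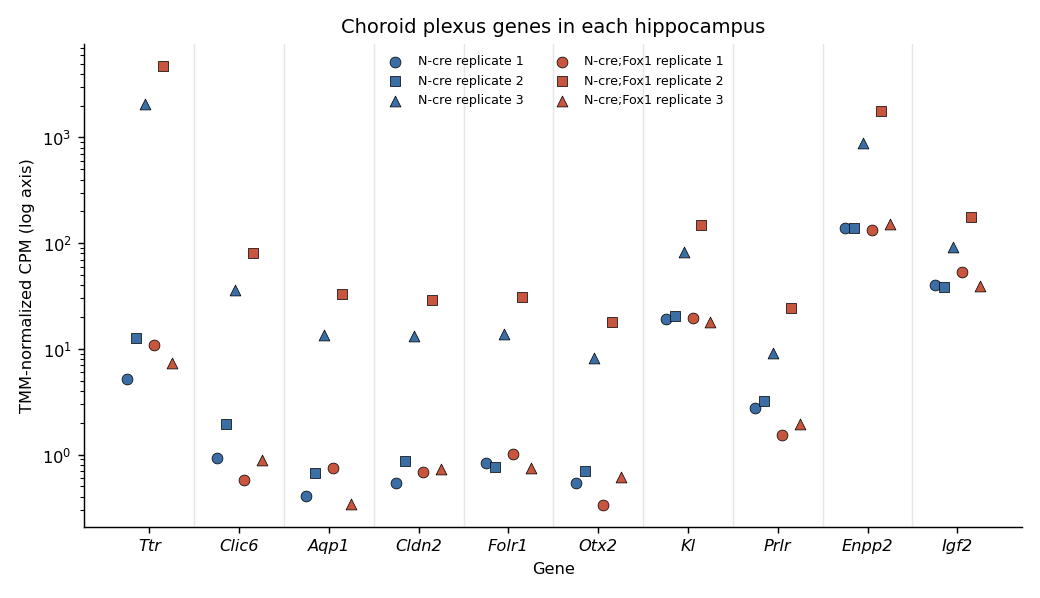
TMM-normalized CPM of each of the 10 choroid plexus genes in each mouse, on a log axis, with N-cre mice in blue, N-cre;Fox1 mice in red and 1 point per mouse. N-cre;Fox1 replicate 2 (red square) is highest and N-cre replicate 3 (blue triangle) next for every gene, with Ttr at 4749 and 2093 CPM.

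Ttr (chromosome 18, 20665280 to 20674321, mm10) encodes transthyretin, the carrier of thyroid hormone and retinol that the plexus secretes into the fluid. Its level was 5.16, 12.7 and 2093 CPM in N-cre replicates 1, 2 and 3 and 10.9, 4749 and 7.41 CPM in N-cre;Fox1 replicates 1, 2 and 3. The 2 high mice lay 165 times or more above the third mouse, and the genotypes overlapped. All of it was assigned to 1 isoform, Ttr-201, with expected counts of 319 in N-cre replicate 1 and 276739 in N-cre;Fox1 replicate 2. Ttr alone made up 64.4% of the counts of the 10 genes in N-cre replicate 3 and 67.1% in N-cre;Fox1 replicate 2, against 2.45% to 5.77% in the other mice. Ranked by TPM, which corrects for transcript length, it was gene 7 of the whole table in N-cre;Fox1 replicate 2 and gene 9837 in N-cre replicate 1.

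Transport across the epithelium is represented by Clic6, Aqp1, Cldn2 and Folr1. Clic6 (chromosome 16, 92485736 to 92541243), of the chloride intracellular channel family, was at 0.923, 1.97 and 36.3 CPM in N-cre and 0.576, 80.9 and 0.880 CPM in N-cre;Fox1 replicates 1, 2 and 3. Aqp1 (chromosome 6, 55336432 to 55348555), the water channel of the fluid-facing membrane, was at 0.405, 0.670 and 13.5 CPM in N-cre and 0.743, 32.9 and 0.339 CPM in N-cre;Fox1 mice. The remaining mice held both genes below 2 CPM, and in each case the genotypes overlapped.

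Cldn2 (chromosome X, 139800828 to 139811386), a claudin of leaky tight junctions, was at 0.534, 0.871 and 13.2 CPM in N-cre and 0.688, 29.2 and 0.728 CPM in N-cre;Fox1 replicates 1, 2 and 3. Folr1 (chromosome 7, 101858331 to 101870788), the folate receptor through which the plexus supplies the fluid with folate, was at 0.825, 0.759 and 13.9 CPM in N-cre and 1.02, 30.9 and 0.745 CPM in N-cre;Fox1 mice. Both genes thus sat near or under 1 CPM in 4 mice and above 13 CPM in the same pair.

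Otx2 (chromosome 14, 48657677 to 48673819), a homeodomain factor that the plexus needs to form and whose protein it also secretes, had its lowest level in N-cre;Fox1 replicate 1. It was at 0.534, 0.692 and 8.26 CPM in N-cre and 0.335, 18.0 and 0.609 CPM in N-cre;Fox1 replicates 1, 2 and 3. On the same strand the annotation used for positions has Gm49154, which shares 168 exon bases with Otx2 and is not among the gene symbols counted. The antisense gene Otx2os1 shares 154 exon bases with Otx2 and was given 0 to 21 expected counts per mouse. Whether RSEM was set to use the strand is not given in the sources used here, so reads in the bases shared with Otx2os1 may have gone to either gene.

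Because Otx2 binds the core TAATCC, the 250 bases before annotated starts were searched for these letters on both strands. RefSeq windows on GRCm38.p6 matched 6 of the 10 genes, Aqp1, Cldn2, Igf2, Kl, Otx2 and Prlr, with 14 windows. The letters occurred in 1 of the 14, against 6.25% of all 32851 windows, and no other motif was searched. The window that holds them, before the start of Otx2-201, is shown with the match in capitals on the opposite strand 211 bases before the start, together with the window of Cldn2-201, which has none.
Otx2, chr14:48665110-48665359, minus strand: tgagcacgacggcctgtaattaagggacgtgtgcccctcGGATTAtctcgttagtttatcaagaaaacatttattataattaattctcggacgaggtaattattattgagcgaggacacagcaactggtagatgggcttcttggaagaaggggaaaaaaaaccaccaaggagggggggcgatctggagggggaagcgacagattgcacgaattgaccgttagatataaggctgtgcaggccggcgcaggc
Cldn2, chrX:139800558-139800807, plus strand: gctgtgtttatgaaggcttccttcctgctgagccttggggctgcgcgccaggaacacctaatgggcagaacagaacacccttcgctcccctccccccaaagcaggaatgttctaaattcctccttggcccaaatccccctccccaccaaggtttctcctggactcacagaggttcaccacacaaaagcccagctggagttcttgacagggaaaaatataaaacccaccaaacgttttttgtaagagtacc
A match of letters is a description and not a site of binding. Otx2-201, which starts at the first window, had expected counts of 22.3, 4.06 and 232.8 in N-cre and 0, 417 and 16.4 in N-cre;Fox1 replicates 1, 2 and 3. Cldn2-201 had 33, 39 and 533 in N-cre and 37, 1704 and 43 in N-cre;Fox1 mice, so both isoforms were highest in the same pair of mice.

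The receptors of the set had a measurable level in every hippocampus. Kl (chromosome 5, 150952607 to 150993817) encodes Klotho, the coreceptor for the hormone FGF23. Its level was 19.1, 20.3 and 82.9 CPM in N-cre and 19.6, 149 and 18.0 CPM in N-cre;Fox1 replicates 1, 2 and 3. Prlr (chromosome 15, 10177238 to 10349180), the prolactin receptor, was at 2.77, 3.24 and 9.13 CPM in N-cre and 1.52, 24.1 and 1.96 CPM in N-cre;Fox1 mice. N-cre replicate 3 stood 4.08 times above the third mouse for Kl and 2.82 times for Prlr, far less than for Ttr.

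Enpp2 and Igf2, which encode secreted proteins, had the highest TPM in the 4 other mice. Enpp2 (chromosome 15, 54838901 to 54952892) encodes autotaxin, the enzyme that makes lysophosphatidic acid, and oligodendrocytes also express it. It was at 140.2, 139 and 888 CPM in N-cre and 134, 1791 and 153 CPM in N-cre;Fox1 replicates 1, 2 and 3. Igf2 (chromosome 7, 142650766 to 142666816), a growth factor of plexus and meninges, was at 40.3, 38.8 and 91.8 CPM in N-cre and 53.4, 175 and 39.5 CPM in N-cre;Fox1 mice. Igf2 had the smallest spread of the set, with N-cre replicate 3 at 1.72 times the third mouse, N-cre;Fox1 replicate 1.

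At the threshold of 2 times the third mouse, 9 of the 10 genes lay inside, the nearest being Prlr at 2.82, and Igf2 lay outside at 1.72. Over all genes, 84 of 18924 tested had the same order with N-cre replicate 3 at least 2 times the third mouse, or 0.444%. From lowest to highest mouse the 10 genes spanned 4.52 to 919.7 times, with a median of 47.7 times. Among the remaining 4 mice the spread was small beside this, with the third mouse 1.13 to 3.41 times the lowest.

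Compared per length, the order of the genes differed between the 2 high mice and the others. In TPM, Ttr came first, followed by Enpp2 and Igf2, in N-cre replicate 3 and N-cre;Fox1 replicate 2, whereas Enpp2 came first, followed by Igf2 and Ttr, in each of the other 4 mice. Ttr was at 4136 and 9496 TPM in the 2 high mice and 10.2 to 25.03 TPM in the others. Enpp2 was at 690 and 1402 TPM in the 2 high mice and 105 to 121 TPM in the others. Prlr was the lowest of the set in the high mice, at 2.65 and 6.60 TPM.

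The 2 high mice differed by a similar factor for most of the genes. With the lowest mouse taken away from each, the gain in CPM in N-cre;Fox1 replicate 2 was 2.02 to 2.97 times that in N-cre replicate 3, with a median of 2.27. For 8 of the 10 genes the ratio lay between 2.02 and 2.48, while it was 2.57 for Igf2 and 2.97 for Prlr. Ttr and Cldn2, whose gains differ by more than 100 times, had the same ratio of 2.27. The genes share their 2 libraries, so these ratios are not independent of one another.

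**Figure D2:**
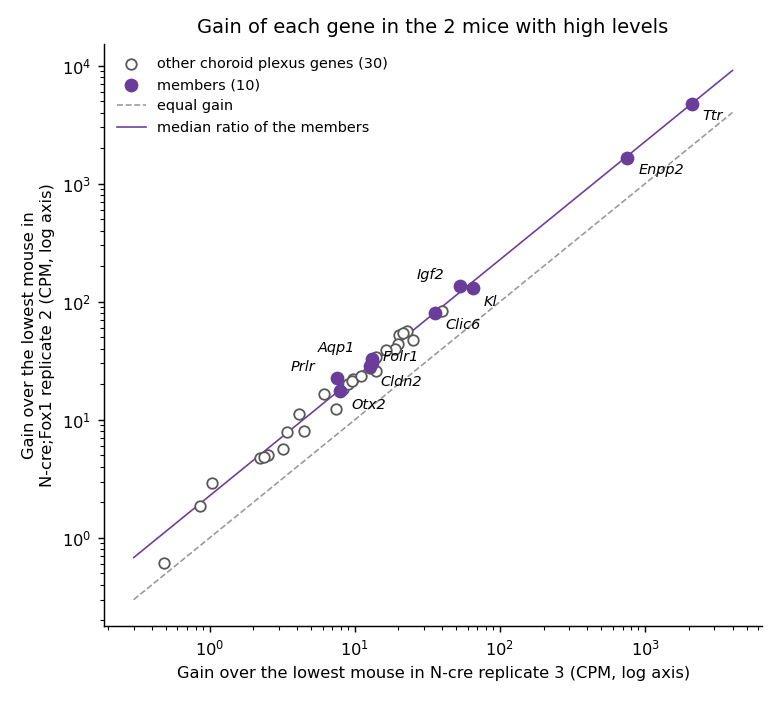
Gain over the lowest mouse in N-cre replicate 3 (x) and N-cre;Fox1 replicate 2 (y), in CPM on log axes, for the 10 members (purple) and 30 other choroid plexus genes (open), with lines at equal gain and at the members' median ratio of 2.27. All members lie above the line of equal gain, at ratios of 2.02 to 2.97.

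Relative to the gain of Folr1 in TPM, the gain of Ttr was 152 times in N-cre replicate 3 and 137 times in N-cre;Fox1 replicate 2. On the same measure Enpp2 stood at 21.6 and 18.8, Igf2 at 1.49 and 1.42, Aqp1 at 0.432 and 0.426, and Otx2 at 0.367 and 0.345. Clic6 stood at 0.821 and 0.734, Cldn2 at 0.366 and 0.324, and Prlr at 0.0837 and 0.0902. Kl changed its order with Folr1, from 1.10 in N-cre replicate 3 to 0.880 in N-cre;Fox1 replicate 2. The part of the TPM in N-cre;Fox1 replicate 2 that lay above the lowest mouse was 74.9% for Igf2, 88.0% for Kl, 92.5% for Enpp2, and 94.3% to 99.9% for the other 7 genes. In N-cre replicate 3 it was 55.1% for Igf2, 78.3% for Kl and 84.8% for Enpp2.

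Enpp2 transcripts differed in isoform use between the mice, as they did in level. In the mice with little Enpp2, Enpp2-202, which holds an exon of 75 bases, made up 15.6% to 18.8% of the gene's count. It was at 7.05% in N-cre replicate 3 (95% Wilson interval 6.79% to 7.32%) and 4.81% in N-cre;Fox1 replicate 2 (4.69% to 4.95%). Enpp2-204, which holds an exon of 156 bases, was at 4.09% to 6.08% in the other mice, 9.77% in N-cre replicate 3 and 10.7% in N-cre;Fox1 replicate 2. Enpp2-201, the main isoform, was at 70.2% to 74.5% in the other mice and at 78.2% and 79.6% in the same pair. The intervals cover counting error only, the shares rest on how RSEM divided reads between isoforms, and no test of the 2 mice against the rest was made because they stand out by the outcome.
The exon of Enpp2-202, exon 20 of 26, chr15:54851348-54851422, minus strand: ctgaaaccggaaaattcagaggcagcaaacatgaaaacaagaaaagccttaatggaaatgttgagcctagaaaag
The exon of Enpp2-204, exon 12 of 26, chr15:54877776-54877931, minus strand: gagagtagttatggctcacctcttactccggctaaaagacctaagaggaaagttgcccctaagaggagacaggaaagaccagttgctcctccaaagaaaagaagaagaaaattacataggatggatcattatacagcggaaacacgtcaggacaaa
Both exons are shown because they set the 2 isoforms apart, and both lengths are multiples of 3, with room for 25 and 52 codons. The coordinates are those of the mm10 annotation.

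**Figure D3:**
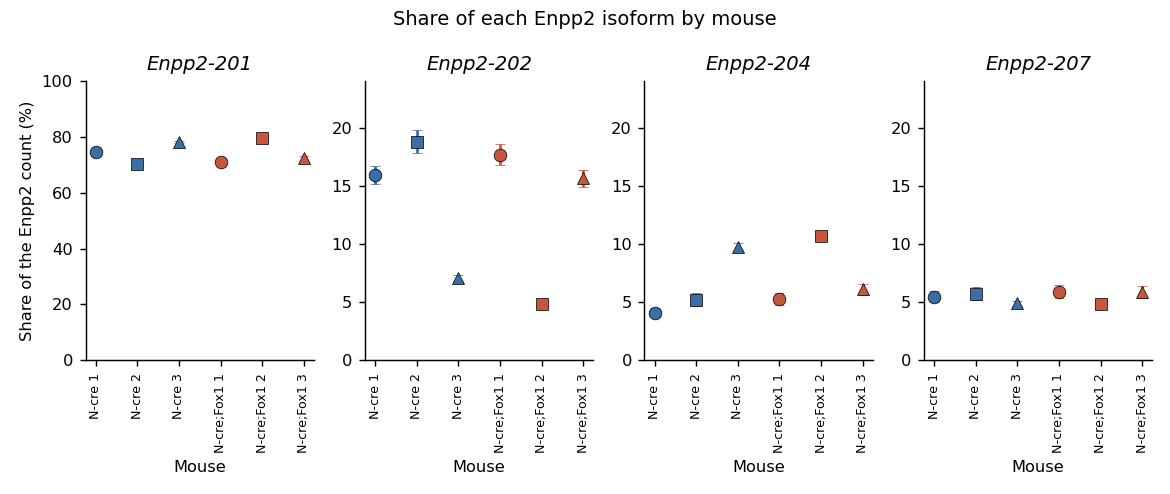
Share of 4 Enpp2 isoforms in the gene's expected count in each mouse, in percent, with 95% Wilson intervals for counting error (N-cre blue, N-cre;Fox1 red; the first panel runs to 100% and the others to 24%). Enpp2-202 is at 7.05% and 4.81% in N-cre replicate 3 and N-cre;Fox1 replicate 2 and at 15.6% or more in the other mice.

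The Enpp2 gained in the 2 high mice had nearly the same make-up in both. Measured against N-cre;Fox1 replicate 1, the mouse with the least Enpp2, Enpp2-201 supplied 79.4% of the gain in N-cre replicate 3 and 80.2% in N-cre;Fox1 replicate 2. Enpp2-204 supplied 10.6% and 11.1%, and Enpp2-202 supplied 5.17% and 3.78%. In N-cre;Fox1 replicate 1 itself Enpp2-202 made up 17.6% of the gene and Enpp2-204 5.23%. On the scale of CPM, Enpp2-204 ranged from 5.73 in the lowest mouse to 191 in the highest, and Enpp2-202 from 22.3 to 86.2. The annotation has an antisense gene, Gm26684, that shares 345 exon bases with Enpp2, and its count of 16.1 to 139 per mouse was small beside that of Enpp2.

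Of the 28 isoforms with a mean count of at least 10, 24 were highest in N-cre;Fox1 replicate 2 and next in N-cre replicate 3. The mean was taken over all 6 mice, so some isoforms passed only through the high mice. Otx2-209 had 0, 0 and 31.8 counts in N-cre and 2.59, 86.1 and 0 in N-cre;Fox1 replicates 1, 2 and 3. The genes were also chosen by their levels, so the 24 are a description and no separate result. The 4 isoforms outside this order, Folr1-205, Igf2-204, Otx2-204 and Prlr-205, had few counts. By genotype, 24 isoform shares in 6 of the genes were compared with exact permutation tests, two-sided, and the lowest p was 0.1, the smallest that 3 mice against 3 allow, with an adjusted p of 1 for each. Outside the 2 high mice the shares of Otx2 and Folr1 rest on few counts, 18 to 36 per mouse for Otx2 and 34 to 55 for Folr1. There the share of Otx2-204 ran from 0% to 76.6%. Of the 24, 1 isoform, Igf2-205, had shares without overlap between the genotypes, against 11.1% of the 42086 isoform shares in the table. Igf2-205 made up 6.46%, 7.69% and 7.60% of Igf2 in N-cre and 9.37%, 11.5% and 8.47% in N-cre;Fox1 replicates 1, 2 and 3. An antisense gene, Igf2os, shares 98 exon bases with Igf2. The annotation used for positions also has Gm49394 on the same strand, which shares 3596 exon bases with Igf2 and is not among the gene symbols counted.

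Compared by genotype, the 10 genes had wide errors, since each group held 1 high mouse. Ttr was at 703 ± 1203 CPM (SD, n = 3) in N-cre and 1589 ± 2736 CPM (SD, n = 3) in N-cre;Fox1 mice. Enpp2 was at 389 ± 432 CPM (SD, n = 3) in N-cre and 693 ± 951 CPM (SD, n = 3) in N-cre;Fox1 mice. For all 10 genes the genotypes overlapped. The fitted log2 fold changes of N-cre;Fox1 against N-cre ran from 0.63 for Kl to 1.26 for Aqp1, with a median of 1.07 beside 0.00 over all genes. Approximate standard errors, the fold change divided by the square root of the F statistic of the fit, ran from 0.79 for Igf2 to 3.40 for Ttr. All 10 passed the filter on low counts, and no p is given for them, because they were chosen by these levels.

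The sign of the difference depended on which of the 2 mice was in the comparison. Without N-cre replicate 3 the log2 fold change was 7.50 for Ttr and above 0 for 10 of 10 genes, with a median of 3.58. Without N-cre;Fox1 replicate 2 it was -6.26 for Ttr, below 0 for 10 of 10 genes, and -2.60 in the median. Without both mice, a choice made after seeing the data, the median was 0.03, with 6 of 10 genes above 0 and a range from -0.95 for Clic6 to 0.23 for Igf2.

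**Figure D4:**
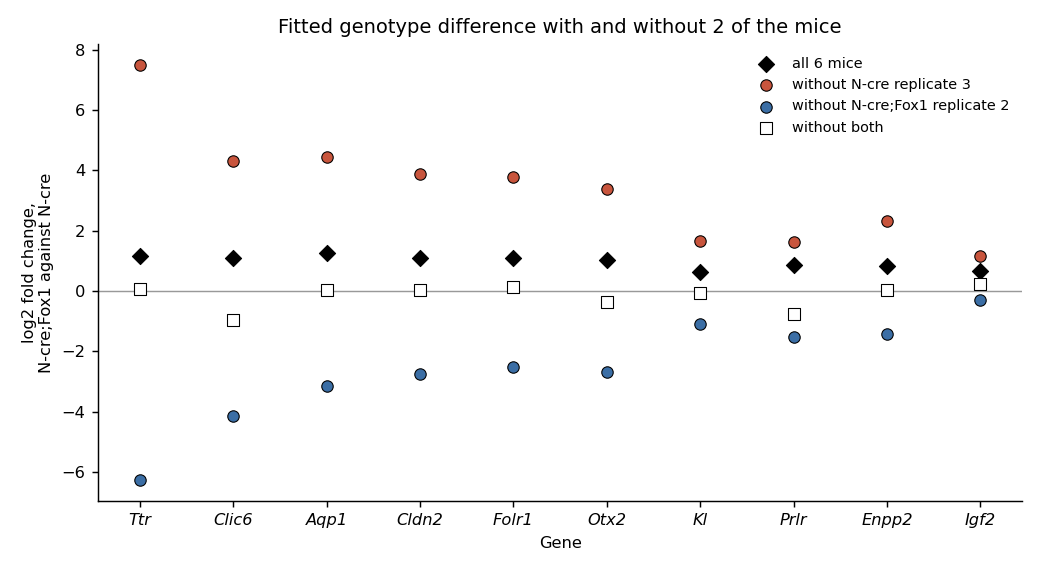
Fitted log2 fold change of N-cre;Fox1 against N-cre for each gene with all 6 mice (black), without N-cre replicate 3 (red), without N-cre;Fox1 replicate 2 (blue) and without both (open). The red points are all above 0, the blue points all below 0, and the open points lie between -0.95 and 0.23.

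The name of the tissue was set beside 30 other genes of choroid plexus epithelium. This list was drawn up with earlier results of these data known, so it is no independent check. Of the 30 genes, 29 were highest in N-cre;Fox1 replicate 2 and next in N-cre replicate 3. Of the 27 that passed the filter on low counts, 26 had this order, against 7.37% of all genes tested. In 24 of the 30, N-cre replicate 3 also stood at least 2 times above the third mouse. It did so in 21 of the 27 past the filter, against 0.444% of all genes tested. Of the 4 with the highest mean CPM this held for Ace, at 3.52 times, and not for Htr2c at 1.26, Cab39l at 1.72 and Igfbp2 at 1.96 times. Kcne2 and Slc4a5, which had some of the widest differences between mice on this list, were named after their values were seen. Kcne2, a potassium channel subunit, was at 0.129, 0.179 and 9.84 CPM in N-cre and 0.242, 22.4 and 0.203 CPM in N-cre;Fox1 replicates 1, 2 and 3. Slc4a5, a bicarbonate transporter of the epithelium, was at 0.178, 0.134 and 14.0 CPM in N-cre and 0.223, 33.4 and 0.135 CPM in N-cre;Fox1 mice. Ace, the angiotensin-converting enzyme, was at 14.6, 13.5 and 51.3 CPM in N-cre and 12.1, 94.4 and 11.7 CPM in N-cre;Fox1 mice. The gene outside the order was Slc5a5, with 19.8 to 22.4 CPM in all mice. The gain ratio between the 2 high mice had a median of 2.22 over the 30 genes, next to 2.27 for the members.

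By genotype, 27 of the 30 passed the filter, and edgeR's quasi-likelihood test called 0 of them at an adjusted threshold of 0.05. It called 5 of all 18924 genes, or 0.0264%. Under an unadjusted p of 0.05 it had 0 of the 27, against 6.19% of all genes tested. DESeq2 and limma-voom also called 0. Most of these genes had 1 high mouse in each genotype and so a wide spread within groups. The 0 called therefore does not show that the genotypes are alike. Log2 fold changes of the 27 had a median of 0.77, beside 0.00 over all genes, and lay above 0 for 27 of 27. Most of them rest on the same 2 high mice, so these signs are not independent of one another. The median was 2.26 without N-cre replicate 3, -1.21 without N-cre;Fox1 replicate 2 and 0.03 without both. DESeq2 gave no adjusted p for 24 genes among these 27 and the 10 members.

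**Figure D5:**
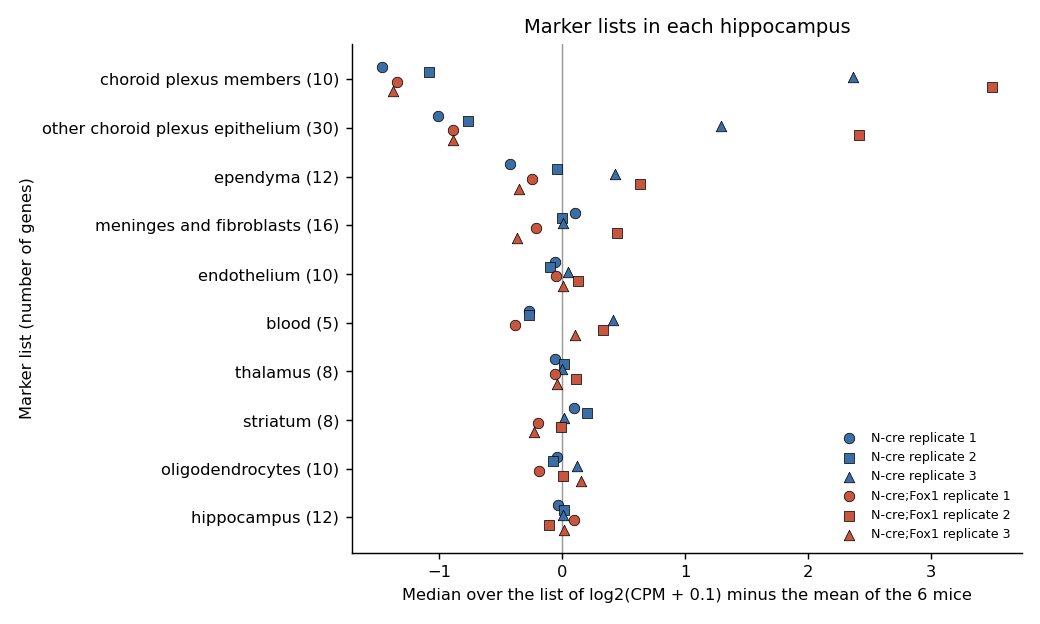
Median over each marker list of log2(CPM + 0.1) minus the mean of the 6 mice (x), by mouse, with N-cre in blue and N-cre;Fox1 in red. The choroid plexus members reach 2.36 and 3.49 in N-cre replicate 3 and N-cre;Fox1 replicate 2, and the ependyma list 0.43 and 0.63.

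The median level of the members, as log2(CPM + 0.1) relative to the mean over mice, reached 3.49 in N-cre;Fox1 replicate 2, 2.36 in N-cre replicate 3 and -1.46 to -1.08 in the others. Markers of ependyma, the ciliated lining of the ventricle, were modestly higher in the same mice, at 0.63 and 0.43 against -0.42 to -0.04, and 8 of the 12 had the same order of mice. Of the 4 with the highest levels, Foxj1, the master regulator of motile cilia, had it, at 9.18, 10.4 and 15.2 CPM in N-cre and 11.4, 21.3 and 9.51 CPM in N-cre;Fox1 replicates 1, 2 and 3. The other 3 were highest in N-cre replicate 3, with Rarres2 at 7.94 and 7.59, Ak7 at 7.30 and 7.26 and Ccdc153 at 7.60 and 5.11 CPM in N-cre replicate 3 and N-cre;Fox1 replicate 2. For meninges and fibroblasts 4 of 16 genes had this order, and the list stood at 0.44 in N-cre;Fox1 replicate 2 but at 0.01 in N-cre replicate 3, inside the -0.36 to 0.11 of the other mice. The 4 hemoglobin genes with the highest levels were above the other mice in both, Hbb-bs at 46.8 and 44.2 CPM against 29.1 to 39.3 CPM. The part of these other cell types in the levels of the 10 genes was not tested.

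Among markers of neighbouring brain regions and of myelin, 2 of 8 genes for thalamus, 1 of 8 for striatum and 0 of 10 for oligodendrocytes had this order of mice, which 7.37% of all genes tested had. The gene in striatum, Ppp1r1b, was at 55.1 and 73.4 CPM in the 2 high mice and 34.5 to 40.9 CPM in the others. Of endothelial genes 3 of 10 had this order, led by the thyroid hormone transporter Slco1c1 at 62.5 and 85.5 CPM against 47.8 to 60.3 CPM. Between the genotypes edgeR called 0 genes of these lists or of those of ependyma, meninges, blood and hippocampus, and DESeq2 and limma-voom called 0, while 6 of 81 fell under an unadjusted p of 0.05 in edgeR, as did 6.19% of all genes tested.

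Hox genes, which mark the plexus of the hindbrain and not that of the lateral ventricle, were near absent. Of 12 such genes, 6 were listed at 0 in every mouse, and their summed level reached at most 0.0987 CPM, in N-cre replicate 3, and was 0.0858 CPM in N-cre;Fox1 replicate 2. Xist, which is expressed from the inactive X of females, was at 443 and 415 CPM in replicate 1 of each genotype and at 0.326 to 0.416 CPM in the other 4 mice, which include both high mice and 2 of the low ones. The dissection notes of single mice were not used here, and whether tissue carried over at dissection gave the levels was not tested.

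The 10 genes outside the set whose pattern over the 6 mice was closest to the members' median, by root mean square difference in log2(CPM + 0.1), were Tmem72, Col8a1, Steap1, Wdr86, Wfdc2, AC140426.1, 1500015O10Rik, Prr32, Krt18 and Abca4. Their difference ran from 0.19 for Tmem72 to 0.49 for Abca4, next to a median of 2.04 over the 15103 genes compared. Of these 10, 6 are among the 30 other choroid plexus genes, a list drawn up with these data known. The genes compared needed a mean of at least 50 counts over the 6 mice, and some passed only through the 2 high ones. Prr32 had 136 counts in N-cre replicate 3, 510 in N-cre;Fox1 replicate 2 and 1 to 5 in the others. The 6 are therefore no independent check. Tmem72 was at 1.68, 1.77 and 21.4 CPM in N-cre and 1.37, 53.2 and 1.86 CPM in N-cre;Fox1 replicates 1, 2 and 3, and 1500015O10Rik, which encodes the secreted peptide augurin, was at 1.17, 1.52 and 22.5 CPM in N-cre and 3.18, 48.1 and 1.49 CPM in N-cre;Fox1 mice. Within the set, Cldn2 at 0.23, Folr1 at 0.25 and Otx2 at 0.26 were nearest to the median pattern, and Igf2 at 1.28 and Ttr at 2.04 were farthest from it. The measure is not scaled for range. Ttr and Igf2 had the order of mice of the set, but spanned 919.7 and 4.52 times from lowest to highest mouse.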

How the data were processed

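Total RNA from 6 hippocampi, 3 per genotype, was sequenced as stranded paired reads. The authors used Cutadapt 1.18 for trimming and STAR 2.5.2b for mapping to mm10, and deposited RSEM 1.3.0 expected counts per isoform, not normalized, and the versions follow the submitters' processing notes.

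Expected counts were summed per gene symbol and rounded. The filter filterByExpr of edgeR 4.0.16 (minimum count 10, minimum total 15) left 18924 genes, and CPM used TMM. Genotypes were compared with edgeR's quasi-likelihood test in R 4.3.3, with Benjamini-Hochberg adjustment over all genes and a threshold of 0.05. DESeq2 1.42.0, limma-voom (limma 3.58.1), other normalizations and filters, a replicate block and each mouse left out were alternatives. Isoform shares were tested in SciPy 1.17.1. TPM, positions and exons came from a later GENCODE annotation of mm10, with lengths for 133445 of the isoforms. The fits were tested on simulated data. The p-values of edgeR set the difference between genotypes against the spread between 3 mice per genotype, estimated with information from all genes. Those of the isoform shares place the observed split among all splits of 3 mice against 3.

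The members and marker lists were chosen with earlier results of these data known. Genes were named as all members, up to 4 genes per other list by mean CPM with any called, the 10 closest patterns among genes averaging 50 counts or more, and Rbfox1. Kcne2, Slc4a5 and Slc5a5, and isoforms singled out, were named after their values were seen.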

Additional observations from a re-analysis of the deposited data

How the results depend on the processing

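The number of genes called between the genotypes, 5 in edgeR's quasi-likelihood test, was 45 with every gene of at least 1 count in total, 50 in DESeq2's Wald test and 3 at an adjusted p under 0.01. With each mouse left out it ran from 2, without N-cre replicate 2, to 29, without N-cre;Fox1 replicate 1, and was 3 without N-cre replicate 3 and without N-cre;Fox1 replicate 3. Without both mice with high choroid plexus transcripts 7 genes were called, 4 of them among the 5. In these fits 0 of the other choroid plexus genes were called, which does not show that the genotypes are alike for them. Of the isoform shares of the members, 1 of 24 did not overlap between the genotypes with all mice. With each mouse left out the number ran from 1 to 6. It was 2 without N-cre replicate 1 and 3 without N-cre replicate 2 or N-cre;Fox1 replicate 3. It was 6 without N-cre replicate 3, 5 without N-cre;Fox1 replicate 2 and 10 without both high mice. Fewer mice leave less room for overlap. The share over all isoforms, 11.1% with all mice, is not given for these smaller sets. These counts are therefore no result about the members. The causes were not tested.

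The mice were not treated as pairs by replicate number. Deviations of same-numbered mice correlated over genes at 0.62, -0.22 and -0.40, which cannot decide whether they were paired. The correlation of 0.62 was between the mice with high Xist. The highest, 0.70, was between the mice with high choroid plexus transcripts, N-cre replicate 3 and N-cre;Fox1 replicate 2. With the replicate block 5 genes were called, and 7 of the 10 members had a log2 fold change above 0, with a median of 0.30. The member level of each mouse kept its sign under every other normalization, summary, set of members and pseudocount tried. That level is centred on the mean over mice and the members were chosen by it, so the kept sign is a description and no test. The precision for the members is limited by the spread between mice, with approximate standard errors of 0.79 to 3.40 on the log2 scale, since each genotype held 1 high mouse.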
